A study of Mus musculus with 6 samples.

Results

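The genes described here make and use microRNAs in tumour cells. They are 9 mouse genes, chosen by name and matched by symbol among the 18182 genes of the deposited files: Drosha (NCBI gene 14000), Dgcr8 (94223), Xpo5 (72322), Dicer1 (192119), Tarbp2 (21357) and the Argonaute genes Ago1 (236511), Ago2 (239528), Ago3 (214150) and Ago4 (76850). Expression was measured in LLC-RFP, a mouse line from Lewis lung carcinoma (LLC) marked with red fluorescent protein. The cells were grown under the skin of wild type C57BL/6 mice, sorted from the primary tumours for red fluorescence, and sequenced. In 3 libraries LLC-RFP cells had been injected alone (LLC alone), and in 3 they had been injected together with bone marrow-derived mesenchymal stem cells, or BMSCs (LLC with BMSCs). The labels name no other agent for either group and give no age for these mice. All tumours came from 1 transplanted line in subcutaneous sites, so that neither group carried a tumour arising in the lung. The labels leave unsaid whether the 3 samples of a group came from separate mice, so the p-values measure the spread between these samples only.

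A microRNA begins as a hairpin in a longer nuclear transcript. The Microprocessor, made of the nuclease DROSHA and its RNA-binding partner DGCR8, cuts the hairpin out, and exportin 5 (Xpo5) carries it to the cytoplasm. There DICER1, with its partner TARBP2, trims it to a short duplex, and one strand is loaded into an Argonaute protein, which the strand guides to target messenger RNAs. Of the 4 mouse Argonautes, AGO2 is the one known as an efficient cutter of fully paired targets. The study from which these libraries come concerned microRNAs that BMSCs pass to cancer cells in exosomes, and the question put to the libraries here is how the tumour cells' own microRNA machinery was expressed when BMSCs had been injected with them.

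The 3 exosomal microRNAs that the study followed are shown because they are the kind of molecule the 9 genes handle. Their mature sequences are from RefSeq (GRCm38.p6), with the seed, the bases that pair with targets, in capitals. The 3 seeds differ from each other. The microRNAs themselves were not measured in these libraries, which held messenger RNA.
mmu-miR-193a-3p: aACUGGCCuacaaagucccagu
mmu-miR-210-3p: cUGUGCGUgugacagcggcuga
mmu-miR-5100: uCGAAUCCcagcggugccucu

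Mature miR-193a-3p lies at chr11:79712009-79712030 on the plus strand, miR-210-3p at chr7:141221407-141221428 on the minus strand and miR-5100 at chr11:60728698-60728718 on the plus strand. A microRNA hairpin also lies within one of the 9 genes. The hairpin of mir-1306 is at chr16:18284239-18284317 on the minus strand, inside coding exon 2 of Dgcr8, whose messenger is thus both a template for a Microprocessor subunit and the carrier of a microRNA hairpin. It is printed from RefSeq with its mature arms in capitals.
mmu-mir-1306 hairpin: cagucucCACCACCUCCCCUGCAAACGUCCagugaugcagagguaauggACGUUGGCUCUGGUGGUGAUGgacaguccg

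In the GENCODE M21 annotation of GRCm38, Ago3, Ago1 and Ago4 stand next to each other on the minus strand of chromosome 4, within 201769 bases. Ago3 is at chr4:126331704-126429556, Ago1 at chr4:126435012-126468583 and Ago4 at chr4:126489541-126533472. Ago2 lies apart, at chr15:73095844-73184935 on the minus strand. Drosha is at chr15:12824815-12935291 on the plus strand, Tarbp2 at chr15:102518192-102523676 on the plus strand and Dicer1 at chr12:104687742-104751952 on the minus strand. Xpo5 is at chr17:46202782-46243598 on the plus strand. Dgcr8 is at chr16:18253948-18289246 on the minus strand, and its end overlaps the end of Trmt2a, a transfer RNA methyltransferase gene on the opposite strand, by 825 bases.

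The libraries held 33476347 to 46189113 estimated fragments on genes. LLC alone replicate 3 stood apart from the other libraries. When tested genes were parted into 5 equal classes by length, its log2 values deviated from the 6-library mean by a median of 0.31 in the shortest class and -0.37 in the longest, whereas the LLC with BMSCs libraries deviated by 0.10 to 0.18 in the longest class. Because the 9 genes except Tarbp2 have lengths of 3709 to 10094 bases, results are also given without that library and with each library's trend over length removed. Without LLC alone replicate 3, the spread within LLC alone came only from replicates 1 and 2, which lay close together for these genes. Standard errors and p-values that are smaller in that fit are thus no stronger support. Of the epithelial tumour markers, Krt8 was at 90.3 to 113 FPKM (fragments scaled to transcript length and library size) in the 6 libraries, but Epcam and Cdh1 were at or below 0.04 FPKM and Krt18 at or below 0.69 FPKM.

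Markers of other cell types also differed between the groups. The 5 tested neutrophil markers of 6 listed were all higher in LLC with BMSCs, with a summed level of 0.21 to 0.54 FPKM in LLC alone and 39.4 to 48.0 FPKM in LLC with BMSCs. S100a8 and S100a9 made up nearly all of this, and Ly6g was at or below 0.11 FPKM in the 6 libraries. Of 7 macrophage markers, 6 were higher and 1 lower, with summed levels of 8.02 to 9.85 FPKM and 10.5 to 10.8 FPKM. The macrophage marker Adgre1 was at 0 in LLC alone and at 0.42 to 0.56 FPKM in LLC with BMSCs. The lower one was Cd68, the most abundant macrophage marker in LLC alone. It was at 5.14 to 6.12 FPKM in LLC alone and at 2.69 to 3.40 FPKM in LLC with BMSCs. All 8 tested BMSC markers of 10 were higher, with summed levels of 91.3 to 96.8 FPKM and 163 to 164 FPKM, of which Cd44 was the largest part. Relative to LLC alone, Col1a1, Ly6a and Nt5e rose the most of the tested BMSC markers. Col1a1 was at 0.01 to 0.02 FPKM in LLC alone and at 1.85 to 2.24 FPKM in LLC with BMSCs. Ly6a was at 2.45 to 4.72 and 23.94 to 27.62 FPKM, and Nt5e at 0.97 to 1.07 and 3.95 to 4.07 FPKM. Cxcl12 and Thy1, also in that list, were at 0 in LLC alone and at or below 0.10 FPKM in LLC with BMSCs. No lymphocyte marker passed the filter on low counts, 0 of 1 tested endothelial marker was called, and 2 of 3 erythroid markers were higher. The part of these cell types in the values below was not tested, and in bulk libraries fewer cells of a type and less RNA per cell cannot be told apart.

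All 9 genes passed the filter on low counts that left 13353 genes for edgeR's quasi-likelihood test. In LLC with BMSCs, 5 of the 9 genes were higher at a Benjamini-Hochberg adjusted p under 0.05, namely Drosha, Dgcr8, Dicer1, Ago1 and Ago3, where 31.5% of all tested genes were higher. None of the 9 was lower, where 31.3% of all tested genes were lower. Xpo5, Tarbp2, Ago2 and Ago4 did not pass the threshold. The median log2 fold change (LLC with BMSCs over LLC alone) of the 9 genes was 0.32, beside 0.01 over all tested genes. None reached a log2 fold change of 1, which 15.8% of tested genes passed together with the adjusted p. The normalized counts of the groups did not overlap for the same 5 genes, all higher in LLC with BMSCs, where 71.3% of tested genes were without overlap in either direction and 36.7% without overlap and higher. Without LLC alone replicate 3 the same 5 genes were called higher, where 35.0% of all tested genes were. With the length trend removed, Dicer1, Ago1 and Ago3 were called higher, where 29.9% of all tested genes were. The median log2 fold change of the 9 genes was then that of Drosha, at 0.12, beside -0.06 over all tested genes.

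**Figure D1:**
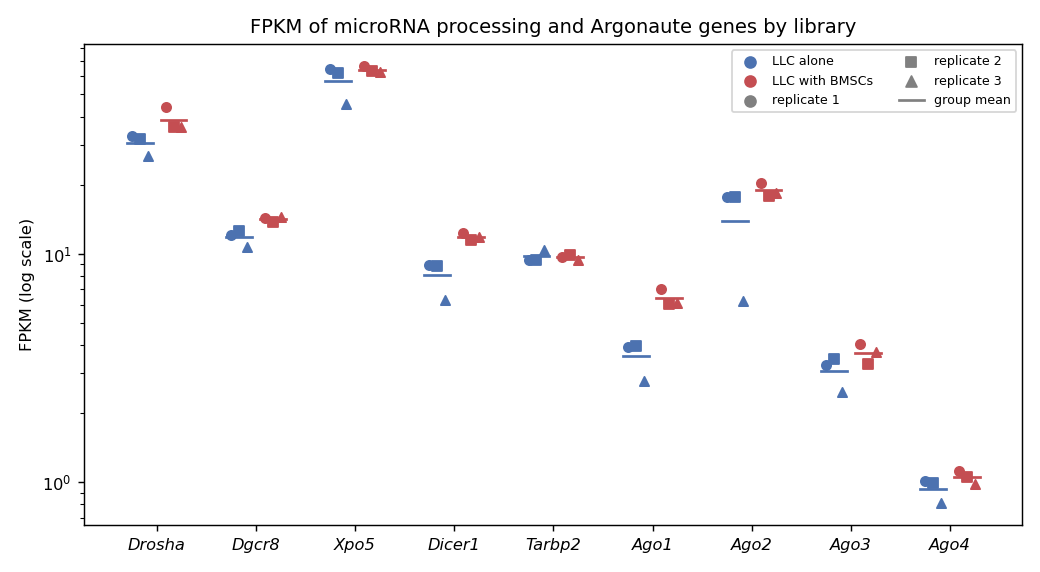
FPKM of the 9 genes (log axis) in each library of LLC alone (blue) and LLC with BMSCs (red), with replicates by symbol and the group mean as a bar. Xpo5 is the highest and Ago4 the lowest in every library, and LLC alone replicate 3 (blue triangle) is the lowest point for all genes but Tarbp2.

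By FPKM, which is per length, the order of the levels was nearly the same in both groups. In LLC alone the mean FPKM fell from Xpo5 (57.4 ± 10.5, SD, n = 3) through Drosha (30.5 ± 3.29), Ago2 (13.9 ± 6.63), Dgcr8 (11.8 ± 0.99), Tarbp2 (9.75 ± 0.56), Dicer1 (8.06 ± 1.52), Ago1 (3.56 ± 0.67) and Ago3 (3.06 ± 0.51) to Ago4 (0.94 ± 0.11). Neighbours in this order did not overlap except Ago2 with Dgcr8 and Ago1 with Ago3. In LLC with BMSCs no neighbours overlapped, and Dicer1 (11.9 ± 0.42) stood above Tarbp2 (9.67 ± 0.25). Among genes with an FPKM above 0, Xpo5 stood between the 87.6 and 92.6 percentile in the 6 libraries and Ago4 between the 31.2 and 33.8 percentile.

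The Microprocessor genes were both modestly higher in LLC with BMSCs. Drosha, the nuclease, was at 32.83, 32.01 and 26.77 FPKM in LLC alone replicates 1 to 3, and at 44.0, 35.9 and 36.1 FPKM in LLC with BMSCs replicates 1 to 3. The groups did not overlap, and LLC with BMSCs replicate 1 was well above the rest of its group. Drosha rose by a fitted log2 fold change of 0.32 (SE 0.11, adjusted p = 0.033), a fold of 1.25. The Drosha call was lost without LLC with BMSCs replicate 1 (log2 fold change 0.22, adjusted p = 0.102) and without LLC alone replicate 2 (0.35, adjusted p = 0.0511). It was also lost with the length trend removed (0.12, SE 0.073, adjusted p = 0.185).

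Dgcr8, which holds the hairpin for Drosha to cut, was at 12.1, 12.6 and 10.7 FPKM in LLC alone and at 14.3, 13.8 and 14.5 FPKM in LLC with BMSCs. The groups did not overlap, and its fold of 1.19 was the smallest of the 5 calls. The fitted log2 fold change was 0.25 (SE 0.072, adjusted p = 0.0173). The Dgcr8 count is uncertain because it shares reads with Trmt2a. The counts of the pair were fractions that summed to whole numbers, within 0.01, in all 6 libraries. Trmt2a fell by 0.42 on the log2 scale (SE 0.068, adjusted p = 0.00109), and the sum of both genes changed by -0.08 (SE 0.056, adjusted p = 0.249). The call was also lost with the length trend removed (0.06, SE 0.042, adjusted p = 0.212), without LLC with BMSCs replicate 1 (0.24, adjusted p = 0.0509) and without LLC with BMSCs replicate 3 (0.23, adjusted p = 0.0617). The FPKM ratio of Drosha to Dgcr8 was 2.49 to 2.71 in LLC alone and 2.49 to 3.06 in LLC with BMSCs, and the groups overlapped.

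Xpo5, the export receptor for precursor hairpins, was the most abundant of the 9 genes. It was at 64.9, 61.9 and 45.4 FPKM in LLC alone and at 66.7, 63.2 and 62.9 FPKM in LLC with BMSCs. Replicates 1 and 2 of LLC alone lay within or just below the range of LLC with BMSCs, and only replicate 3 was low. The fitted log2 fold change was 0.14 (SE 0.12, adjusted p = 0.341), and it was 0.01 (SE 0.049, adjusted p = 0.921) without LLC alone replicate 3.

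Of the dicing genes, Dicer1 was higher in LLC with BMSCs and its partner Tarbp2 did not pass the threshold. Dicer1, the nuclease that releases the microRNA duplex, was at 8.98, 8.89 and 6.31 FPKM in LLC alone and at 12.4, 11.5 and 11.8 FPKM in LLC with BMSCs. Every LLC with BMSCs library lay above every LLC alone library. Dicer1 rose by a log2 fold change of 0.54 (SE 0.13, adjusted p = 0.00772), a fold of 1.46. It was 0.40 (SE 0.048, adjusted p = 1.2e-04) without LLC alone replicate 3 and 0.20 (SE 0.035, adjusted p = 8.1e-04) with the length trend removed, so that the call held while the size fell. With lengths near 10090 bases, Dicer1 is a long gene. Its normalized count in LLC alone replicate 3 was 0.705 of the mean of replicates 1 and 2, and 1.01 of it once the length trend was removed.

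Tarbp2, the RNA-binding partner of DICER1, is the shortest of the 9 genes, at 1846 bases. It was at 9.43, 9.42 and 10.4 FPKM in LLC alone and at 9.68, 9.92 and 9.42 FPKM in LLC with BMSCs. The groups overlapped, and LLC alone replicate 3 was the highest library. The fitted log2 fold change was -0.02 (SE 0.070, adjusted p = 0.797). The FPKM ratio of Dicer1 to Tarbp2 was 0.952, 0.944 and 0.607 in LLC alone and 1.28, 1.16 and 1.26 in LLC with BMSCs. Dicer1 was thus below Tarbp2 in every LLC alone library and above it in every LLC with BMSCs library. These ratios set a long gene against a short one and were not corrected for the trend over length. With that trend removed, the fitted log2 fold change was 0.20 for Dicer1 and 0.01 for Tarbp2.

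Of the Argonaute genes, Ago1 and Ago3 were higher in LLC with BMSCs, with the largest fitted changes of the 9 genes, and Ago2 and Ago4 did not pass the threshold. Ago1 was at 3.92, 3.97 and 2.78 FPKM in LLC alone and at 7.02, 6.02 and 6.11 FPKM in LLC with BMSCs. The groups were far apart, with a gap between them of 55.2% of the LLC alone mean by normalized count. Its rise was the largest of the 9, at a log2 fold change of 0.83 (SE 0.14, adjusted p = 0.00124), a fold of 1.77. It was 0.68 (SE 0.072, adjusted p = 5.6e-05) without LLC alone replicate 3 and 0.53 (SE 0.059, adjusted p = 6.2e-05) with the length trend removed. Ago1 and Dicer1 passed the threshold under each of the alternatives that recompute a fit.

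Ago2, the Argonaute known for cutting targets, was the most abundant of the 4, and its value rested on a single library. It was at 17.8, 17.7 and 6.25 FPKM in LLC alone and at 20.6, 18.0 and 18.6 FPKM in LLC with BMSCs. Replicates 1 and 2 of LLC alone lay just below the LLC with BMSCs range, and replicate 3 was far below every other library. The fitted log2 fold change was 0.44 with a large error (SE 0.34, adjusted p = 0.291). Without LLC alone replicate 3 it was 0.09 (SE 0.061, adjusted p = 0.224). The normalized count of Ago2 in that replicate was 0.355 of the mean of replicates 1 and 2, and 0.472 of it once the length trend was removed. For the other 8 genes the same ratio after removal was 0.768 to 1.03. The cause of the low Ago2 value in this library was not tested.

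Ago3 was called higher by counts and not by FPKM. By normalized count it was at 1340, 1285 and 804 in LLC alone and at 1893, 1744 and 1789 in LLC with BMSCs, without overlap. The counts gave a log2 fold change of 0.66 (SE 0.17, adjusted p = 0.0109), a fold of 1.58. It was 0.46 (SE 0.050, adjusted p = 6.5e-05) without LLC alone replicate 3 and 0.33 (SE 0.058, adjusted p = 9.1e-04) with the length trend removed. By FPKM it was at 3.26, 3.45 and 2.48 in LLC alone and at 4.02, 3.31 and 3.70 in LLC with BMSCs, where the groups overlapped. The limma test on log2(FPKM + 1) gave a log2 fold change of 0.21 for Ago3 (adjusted p = 0.121).

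The deposited length of Ago3 differed between the libraries, and FPKM divides by it. The length was 9538, 8688 and 7492 bases in LLC alone and 11031, 12415 and 11400 bases in LLC with BMSCs, without overlap. The files hold 7 transcript models of Ago3, of which 4 were assembled by the authors' pipeline and exceed 15000 bases. These 4 models carried 80.2% to 92.0% of the gene's estimated counts. The RefSeq model carried 13.5%, 13.9% and 0% in LLC alone and 6.36%, 6.00% and 8.81% in LLC with BMSCs. A pair of short assembled models, under 1400 bases, carried 2.01% to 9.51% of the counts but 20.2% to 58.7% of the summed FPKM.

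**Figure D2:**
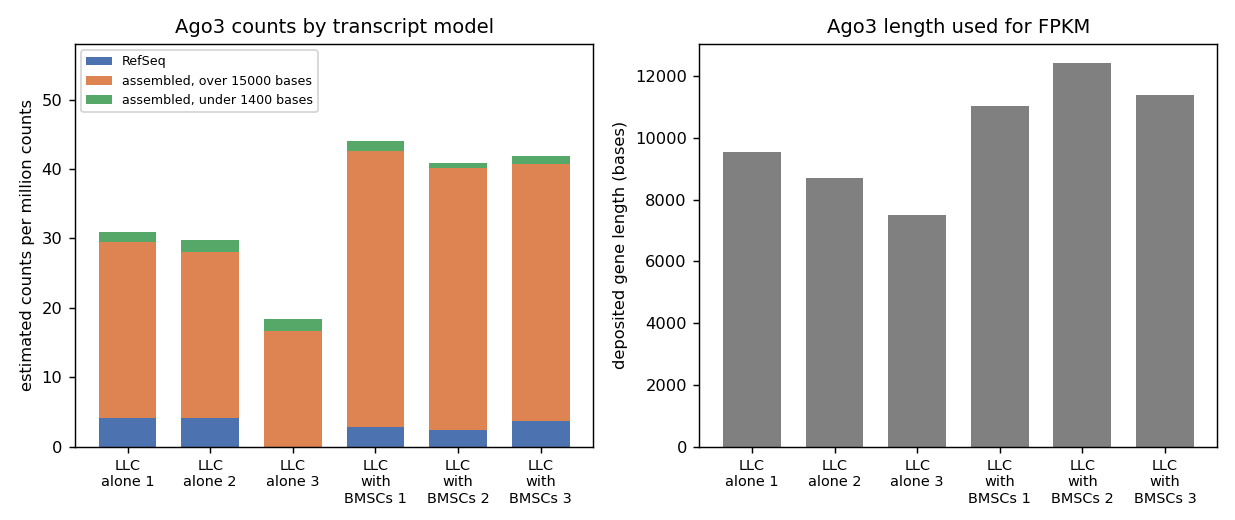
Left, estimated counts of Ago3 as CPM (counts scaled to the library total), split by kind of transcript model. Right, the deposited Ago3 length in bases that enters its FPKM. The models over 15000 bases hold most counts in every library, and the length is 7492 to 9538 bases in LLC alone and 11031 to 12415 bases in LLC with BMSCs.

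Ago1 and Ago3, neighbours on chromosome 4, also shared reads. Their estimated counts were fractions that summed to whole numbers in all 6 libraries, so that the division of reads between them was an estimate. The sum of both genes rose by a log2 fold change of 0.75 (SE 0.16, adjusted p = 0.00385). Ago1 itself was carried by 2 RefSeq models of the same length, 7255 bases, with identical values, and another model of 7337 bases held 0% to 7.65% of its FPKM. Drosha was at 98.4% or more on one RefSeq transcript. Dicer1 had 74.2% to 83.8% of its FPKM on its RefSeq transcript and the rest on 2 assembled ones. Tarbp2 was spread over 4 models, with 52.0% to 57.9% on the largest. Dgcr8, Xpo5, Ago2 and Ago4 had 1 model each.

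Ago4 was the least abundant of the 9 genes. It was at 1.01, 0.99 and 0.81 FPKM in LLC alone and at 1.12, 1.05 and 0.98 FPKM in LLC with BMSCs. The groups overlapped. Its log2 fold change was 0.15 (SE 0.11, adjusted p = 0.273), and it was -0.14 (SE 0.077, adjusted p = 0.132) with the length trend removed. Without LLC alone replicate 3 it was 0.06 (SE 0.093, adjusted p = 0.605).

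**Figure D3:**
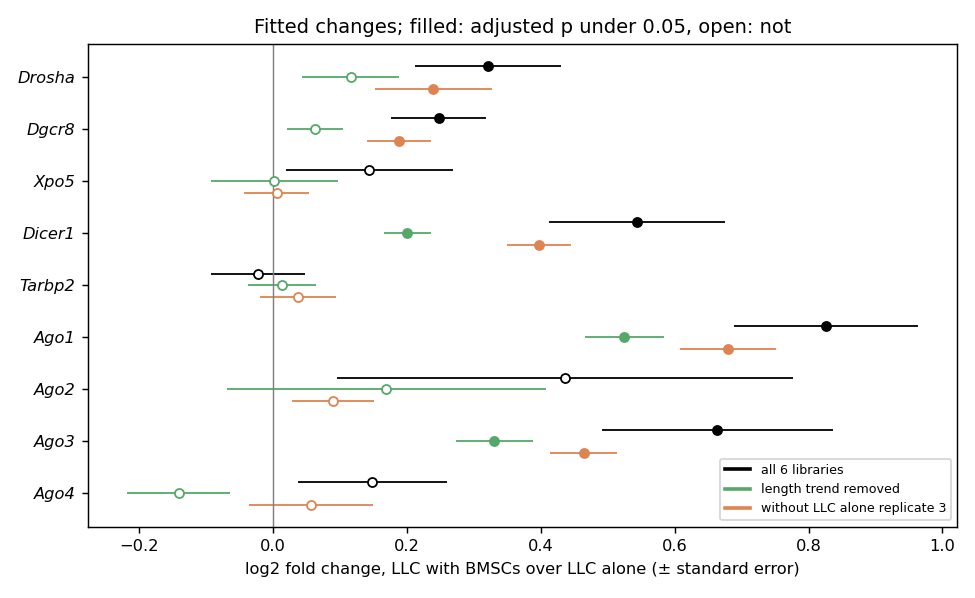
Fitted log2 fold change of each gene with its standard error, from all 6 libraries (black), with the length trend removed (green) and without LLC alone replicate 3 (orange); filled points have an adjusted p under 0.05. Ago1, Ago3 and Dicer1 are filled in all 3 fits, Drosha and Dgcr8 in 2, and Ago2 has the widest error with all libraries.

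Within each library, the share of each Argonaute in the summed FPKM of the 4 does not depend on library scaling. It does depend on the deposited lengths, which differed between the groups for Ago3. The shares were not corrected for the trend over length. Ago2 made up 68.4%, 67.8% and 50.7% of the sum in LLC alone and 62.8%, 63.4% and 63.2% in LLC with BMSCs. Ago1 made up 15.1%, 15.2% and 22.6% in LLC alone and 21.5%, 21.2% and 20.8% in LLC with BMSCs. For both genes LLC alone replicate 3 lay beyond LLC with BMSCs on the side opposite to replicates 1 and 2, so the groups overlapped. The exact two-sided permutation test gave p = 1 for Ago2 and p = 0.4 for Ago1 (adjusted p over the 4 shares 1 and 0.533).

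Ago3 made up 12.6%, 13.2% and 20.1% of the sum in LLC alone and 12.3%, 11.7% and 12.6% in LLC with BMSCs (exact permutation p = 0.2, adjusted p = 0.4). Ago4 made up 3.89%, 3.79% and 6.57% in LLC alone and 3.42%, 3.70% and 3.34% in LLC with BMSCs. The Ago4 shares did not overlap, with a difference of -1.27 points (exact permutation p = 0.1, adjusted p = 0.4), and 0.1 is the smallest p that 3 libraries against 3 allow. Without LLC alone replicate 3 the difference was -0.356 points for Ago4 and -0.707 points for Ago3, in place of -3.12 points. By shares of estimated counts with all 6 libraries, the difference was 0.79 points for Ago3. For Ago2 it was -1.89 points by counts and 0.85 points by FPKM, while Ago1 and Ago4 kept their sign. The summed FPKM of the 4 genes was 25.9, 26.1 and 12.3 in LLC alone and 32.7, 28.4 and 29.4 in LLC with BMSCs. The low sum of LLC alone replicate 3 was mainly a low Ago2. The FPKM ratio of Ago1 to Ago2 was 0.221, 0.224 and 0.445 in LLC alone and 0.342, 0.334 and 0.329 in LLC with BMSCs.

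**Figure D4:**
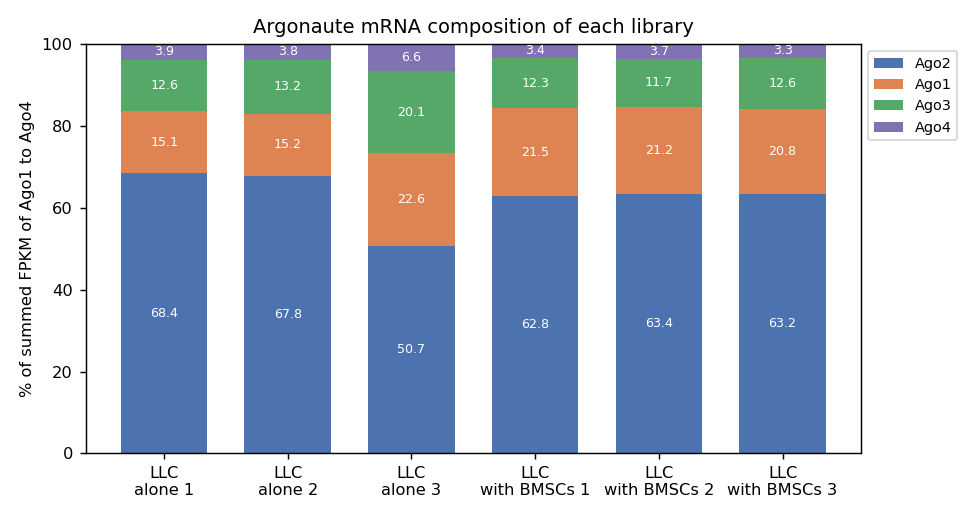
Share of Ago1, Ago2, Ago3 and Ago4 in their summed FPKM, in percent, for each library. Ago2 is the largest share in all 6 libraries, at 50.7% in LLC alone replicate 3 and 62.8% to 68.4% in the others.

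The windows before the starts of the 3 clustered Argonaute genes are shown because Ago1 and Ago3 passed the threshold and Ago4, next to them, did not. They are the 250 bases before the RefSeq start (GRCm38.p6, minus strand), at chr4:126429543-126429792 for Ago3, chr4:126468632-126468881 for Ago1 and chr4:126533459-126533708 for Ago4, with motif matches in capitals. RefSeq has 2 starts for Ago1, and the upstream one is used. It lies outside the Ago1 span of GENCODE given above, and 0 of the 5 GENCODE transcripts of Ago1 hold the first bases after it, while 1 holds those after the other start.
Ago3 promoter: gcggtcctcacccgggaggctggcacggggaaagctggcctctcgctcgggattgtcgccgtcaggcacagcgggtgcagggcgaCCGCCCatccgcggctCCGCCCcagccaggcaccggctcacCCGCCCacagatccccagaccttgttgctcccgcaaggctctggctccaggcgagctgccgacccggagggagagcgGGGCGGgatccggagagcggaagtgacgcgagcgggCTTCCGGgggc
Ago1 promoter: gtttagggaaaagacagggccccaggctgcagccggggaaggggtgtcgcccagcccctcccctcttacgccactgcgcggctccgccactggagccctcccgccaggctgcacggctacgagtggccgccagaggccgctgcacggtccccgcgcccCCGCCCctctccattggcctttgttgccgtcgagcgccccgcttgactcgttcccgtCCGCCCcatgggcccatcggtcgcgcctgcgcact
Ago4 promoter: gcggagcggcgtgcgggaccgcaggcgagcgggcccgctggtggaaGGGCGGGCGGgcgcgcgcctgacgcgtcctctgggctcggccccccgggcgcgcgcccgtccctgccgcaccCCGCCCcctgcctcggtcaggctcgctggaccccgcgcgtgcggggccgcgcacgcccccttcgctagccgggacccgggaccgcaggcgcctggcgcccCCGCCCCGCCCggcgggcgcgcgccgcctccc

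A GC box, an ETS core, a STAT motif and an E-box were searched on both strands of the 250 bases before the start in the RefSeq promoter windows. The bases after the start that these windows also hold were not searched. The GC box GGGCGG matched 4 times for Ago3, 2 times for Ago1 and 5 times for Ago4, with overlapping matches counted, and 32.7% of all 32851 windows held it. The ETS core CCGGAAG matched 1 time for Ago3 and 0 times for Ago1 and Ago4, and 6.91% of all windows held it. The STAT motif TTCNNNGAA was held by 7.02% of all windows and the E-box CACGTG by 6.02%, and neither matched in the windows of these 3 genes. A match is a description of letters only.

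The other genes of the microRNA pathway were taken as 8 lists of 120 genes in all, of which 103 were tested. Of these 103, 42 (40.8%) were higher and 24 (23.3%) lower in LLC with BMSCs, beside 31.5% and 31.3% of all tested genes. With the length trend removed, 34 were higher and 42 lower, beside 29.9% and 40.1% of all tested genes. The counts of each list below are to be read beside these shares of the same fit. Up to 4 genes of each list are named, by the size of their change, 29 in all, with adjusted p values of 4.6e-06 to 0.026. All 29 kept their direction and an adjusted p under 0.05 with the length trend removed (highest 0.0187) and without LLC alone replicate 3 (highest 0.0138). Because they were picked by change and adjusted p in these same libraries, this is no separate support. Their sizes were not all kept. With the length trend removed, the log2 fold change was more than 1.5 times smaller for 9 of them, at 0.39 for Pan3, 0.19 for Ncbp1, 0.24 for Ctdspl, 0.29 for Xpo1, 0.28 for Ipo8, 0.35 for Dcp2, 0.25 for Tut7, 0.16 for Edc4 and 0.12 for Xrn1, and more than 1.5 times larger for Ddx17, at -0.78.

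Of 14 tested cofactors of the Microprocessor, 6 were higher and 4 lower, with a median log2 fold change of 0.13. Adarb1, an RNA-editing adenosine deaminase that can act on microRNA hairpins, went from 4.10 ± 0.35 to 8.87 ± 0.17 FPKM (SD, n = 3), a log2 fold change of 1.14 (SE 0.078). Hnrnpa1, an RNA-binding protein known to aid the cutting of some hairpins, rose by 0.60 (SE 0.056). Ddx17, an RNA helicase of the Microprocessor, fell by 0.52 (SE 0.091), and Mettl3, which methylates adenosines in RNA including primary microRNAs, fell by 0.63 (SE 0.067).

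Of 9 tested partners in export and dicing, 2 were higher and 3 lower, and the median log2 fold change was -0.09. Xpo1, the general export receptor for proteins and some RNAs, rose by 0.54 on the log2 scale (SE 0.063). The cap-binding subunits went opposite ways, Ncbp1 with a rise of 0.31 (SE 0.053) and Ncbp2 with a log2 fold change of -0.98 (SE 0.089). Rcc1, which charges the Ran protein that drives nuclear transport, fell by 0.20 (SE 0.060). The lower genes of this list numbered 1 without LLC with BMSCs replicate 2, 1 without its replicate 3 and 5 with the length trend removed. Over all tested genes, 3593 of 13508, 3581 of 13511 and 40.1% were lower in these fits.

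Of 21 tested genes for Argonaute loading and partners of the silencing complex, 10 were higher and 4 lower, with a median log2 fold change of 0.23. Mov10, an RNA helicase that binds Argonautes, went from 7.14 ± 0.50 to 16.7 ± 1.93 FPKM, a log2 fold change of 1.20 (SE 0.099). P4ha1, a subunit of the prolyl hydroxylase that modifies collagen and also AGO2, rose by 0.81 (SE 0.057). Hsp90ab1, a chaperone used in loading, rose by 0.62 (SE 0.052), from 1440 ± 50.8 to 2251 ± 44.1 FPKM. Ipo8, an import receptor that binds Argonautes, rose by 0.52 (SE 0.095). In this list 10 genes were higher and 8 lower with the length trend removed.

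Of 16 tested GW182 proteins and deadenylase subunits, which act downstream of Argonautes to shorten the poly(A) tails of targets, 7 were higher and 3 lower, with a median of 0.22. The 4 named genes were all higher. Cnot6 and Cnot7, catalytic subunits of the CCR4-NOT deadenylase, rose by 0.83 (SE 0.080) and 0.78 (SE 0.059). Pan2 and Pan3, which form the other deadenylase, rose by 0.83 (SE 0.073) and 0.62 (SE 0.063). Pan2 went from 8.29 ± 0.73 to 14.3 ± 0.19 FPKM. Without LLC alone replicate 3, 6 genes of this list were lower, beside 4539 of all 13541 tested genes. With the length trend removed 6 were higher and 7 lower, beside 29.9% and 40.1% of all tested genes.

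Of 11 tested genes for decapping and decay, 5 were higher and 3 lower, with a median of 0.14. Dcp2, the decapping enzyme, rose by 0.66 (SE 0.13), Edc4, a scaffold for decapping, by 0.38 (SE 0.095), and Xrn1, the exonuclease that degrades decapped RNA, by 0.46 (SE 0.15). Xrn1 was at 0.29 without LLC alone replicate 3 and at 0.12 with the length trend removed (adjusted p = 0.0187). Lsm1, of the ring that binds deadenylated ends, fell by 0.45 (SE 0.11). The higher genes of this list numbered 2, 3 and 2 without LLC with BMSCs replicate 1, 2 or 3 in turn, and 3 with the length trend removed. Over all tested genes, 3771 of 13547, 3652 of 13508, 3617 of 13511 and 29.9% were higher in these fits.

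Of 13 tested genes for microRNA tailing and turnover, 6 were higher and 3 lower, with a median of 0.04. Zc3h12a, a nuclease also known as Regnase-1 that acts on inflammatory messengers and microRNA precursors, went from 10.4 ± 0.30 to 21.6 ± 0.65 FPKM, a log2 fold change of 1.04 (SE 0.056). Pnpt1, a mitochondrial polynucleotide phosphorylase, rose by 0.72 (SE 0.059), and Tut7 (Zcchc6 in the files), which adds uridines to precursors, by 0.52 (SE 0.095). Zswim8, part of a ubiquitin ligase that acts in target-directed decay of microRNAs, fell by 0.61 (SE 0.12). In this list 4 genes were higher and 5 lower with the length trend removed.

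Of the PIWI relatives of the Argonautes, which act mainly in the germ line, 2 of 6 were tested, and both were near 1 FPKM or less. Piwil4 went from 0.62 ± 0.02 to 1.42 ± 0.12 FPKM, a log2 fold change of 1.17 (SE 0.11). Piwil2, which the rule for named genes did not select, went from 0.28 ± 0.026 to 0.153 ± 0.0058 FPKM (log2 fold change -0.92, adjusted p = 0.00128). Of 17 tested host genes of microRNAs, 5 were higher and 3 lower, with a median of 0.11. Ctdspl, host of a miR-26 gene, rose by 0.45 (SE 0.064), and its relative Ctdsp1, host of another, fell by 0.44 (SE 0.073). Mcm7, a replication helicase subunit that hosts the miR-106b cluster, fell by 0.41 (SE 0.054), and Mest, host of miR-335, went from 3.48 ± 0.41 to 1.35 ± 0.40 FPKM (log2 fold change -1.40, SE 0.20). With the length trend removed, 3 host genes were higher and 7 lower.

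**Figure D5:**
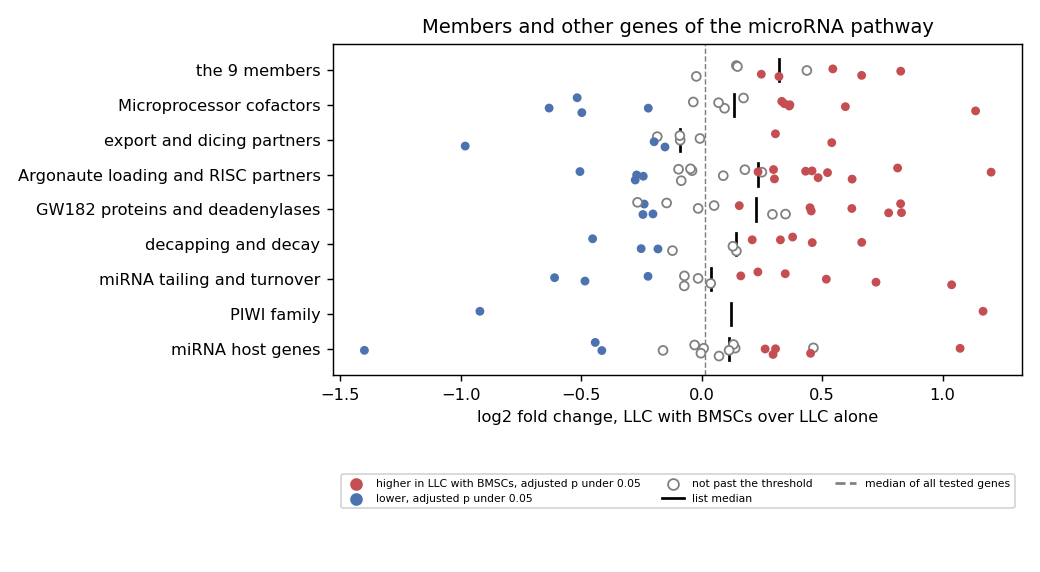
Log2 fold change (LLC with BMSCs over LLC alone) of the 9 genes and of each tested gene in 8 lists of the microRNA pathway. Red points are higher and blue points lower at an adjusted p under 0.05, open points did not pass, black bars are list medians, and the dashed line is the median of all tested genes, 0.01. The 9 genes have no blue point, and each list has points on both sides.

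Among the 9 genes, the most alike pair over the 6 libraries was Ago4 and Xpo5, with a root mean square distance of 0.068 between their centred log2 CPM values, and the least alike was Ago2 and Tarbp2, at 0.631. Dicer1 was nearest to Ago3 (0.096). Of all other tested genes, those with the pattern most like Ago1 were Col5a1, a collagen gene (0.018), Pcnx3 (0.030) and Sbf1 (0.039). Those most like Tarbp2 were Tbc1d19 (0.015), Sephs2, a selenophosphate synthetase gene (0.016), and Prim1, a DNA primase subunit gene (0.018). The distances are descriptions over the same 6 libraries, which share their depths and length trends across genes.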

How the data were processed

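Messenger RNA of sorted LLC-RFP cells was sequenced in 6 libraries, 3 in each group as the sample labels give them. Estimated counts, unscaled and often fractional, were deposited by the authors for genes and transcripts. The deposited FPKM values divide them by length and depth. The submitters' processing notes name HISAT, StringTie, Cufflinks, GATK and the mouse build mm8, with no role given. The paper gives oligo-dT enrichment and sequencing on a BGISEQ instrument, while the labels name Illumina protocols. The files hold no coordinates, so positions are from GRCm38.

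Estimated counts were rounded and tested with edgeR 4.0.16 in R 4.3.3 (TMM, default filter on low counts, quasi-likelihood test, Benjamini-Hochberg adjustment over 13353 genes, threshold 0.05). Standard errors are the fold change over the root of its test statistic. Shares were compared by exact two-sided permutation. The depth was 33476347 to 46189113 fragments, and the coefficient of variation between replicates common to all tested genes was 9.92%. By normalized count of the members it was 6.61% to 47.4% in LLC alone and 2.26% to 12.3% in LLC with BMSCs. In simulated counts edgeR found 169 of 200 genes with a planted log2 fold change of 1, among 183 calls. With a length trend also planted in 1 library, edgeR found 154 of 200, among 160 calls. On those counts with the length trend removed, it found 171 of 200, among 191 calls, so that more of its calls were false. No member reached a change of that size, so the simulation does not give the power for the members. Alternatives were DESeq2 1.42.0, limma 3.58.1 on log2(FPKM + 1) and log2(FPKM + 0.1), other scalings, filters and thresholds, each library left out, a replicate block, the close pairs of libraries summed, and a loess trend over length removed. The close pairs were LLC alone replicates 1 and 2, and LLC with BMSCs replicates 2 and 3. A trend over length and GC content and the summing of genes that share reads were added after the data were seen. The genes named are the 9 members, up to 4 genes per list with the largest absolute log2 fold change among those with an adjusted p under 0.05 and 100 or more normalized counts on average, and the 3 genes nearest in pattern to the members with the largest rise and fall. Members, lists and tests were chosen with earlier results of these data known.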

Additional observations from a re-analysis of the deposited data

How the results depend on the processing

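Ago1 and Dicer1 kept their direction and an adjusted p under 0.05 in each alternative fit, and Ago2 passed in none (adjusted p 0.102 to 0.602). The 5 members called higher became 3 without LLC with BMSCs replicate 1, with the length trend removed (alone, with the replicate block, or with GC content), and with the close pairs summed, and 0 at either threshold that adds a log2 fold change of at least 1. Leaving out 1 library gave 3 to 5. Genes called higher over all tested genes also varied, from 4210 of 13353 in the main fit. They were 3771 of 13547 without LLC with BMSCs replicate 1, and 3361 of 13821 with close pairs summed. With the length trend removed they were 3999 of 13353, and 3995 and 4070 with the block or GC content added. They were 3617 to 4736 with any 1 library left out. Why members lost their calls was not tested. Summing members with the gene that shares their reads also gave 3, because Ago1 and Ago3 then count as 1 unit, which was called, and Dgcr8 with Trmt2a was not. With the length trend removed, with the replicate block added, with GC content added and with close pairs summed, Drosha was at 0.116, 0.112, 0.109 and 0.410 and Dgcr8 at 0.0627, 0.0627, 0.0700 and 0.283 on the log2 scale, none past the threshold. In the same 3 trend settings Ago4 was at -0.14, -0.14 and -0.15 and Tarbp2 at 0.0137, 0.0136 and 0.0643, and Xpo5 was at -0.00704 with GC content, all opposite to their reported sign and not past the threshold. The median over all tested genes was -0.0649, -0.0648 and -0.0658 in these settings, in place of 0.012. Dgcr8 summed with Trmt2a was at -0.0787. Ago3 lost its call by limma, at 0.21 on log2(FPKM + 1) with or without the filter and 0.26 on log2(FPKM + 0.1). Leaving out 1 library gave 0.22 to 0.37 for Drosha, 0.19 to 0.29 for Dgcr8 and -0.0518 to 0.0372 for Tarbp2. The Ago2 share difference of 0.85 points was -1.89 by counts and -4.94 to 3.91 with 1 library left out, and the Ago3 share difference of -3.12 points was 0.79 by counts. Genes called higher fell from 4210 to 1155 and 910, and lower from 4183 to 957 and 723, with a log2 fold change of at least 1 at an adjusted p of 0.05 and 0.001. For the pathway lists these were 5 and 5 of 42 higher, and 1 and 1 of 24 lower. Lower list genes were 42 with the length trend removed, 42 with the replicate block added, 41 with GC content added and 12 with close pairs summed. Same-numbered libraries of the 2 groups deviated with r = 0.0762, -0.106 and 0.0572 across genes, so the numbers were not taken as pairs. With the replicate block, 5 members and 43 list genes were higher and 23 list genes lower. Of all 13353 tested genes, 4161 were then higher and 4058 lower. With 3 libraries per group, changes of the size of a member's standard error were not detectable.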
